A study of Mus musculus with 6 samples.

Results

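The subunits of the oxidative phosphorylation complexes, encoded in the nucleus, were followed in pooled mouse liver RNA over 3 diet arms and 2 times of day. Genes were chosen by name, as those whose symbol begins with Nduf, Uqcr, Cox4 to Cox8 or Atp5, or is Sdha, Sdhb, Sdhc or Sdhd. On the array, 135 probes of 87 such genes were present. A gene was kept when a probe of it had a detection p under 0.01 on at least 2 of the 6 arrays, and its brightest probe stood for it, which left 79 of the 8561 genes measured in all. The 8 genes that did not pass were Cox4i2, Cox6b2, Cox7b2, Cox8c, Ndufaf6, Ndufs1, Sdha and Uqcrfs1.

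The livers came from C57BL/6J mice of 18 weeks, and each array held RNA pooled from 4 mice. The NOB arm was fed a high-fat diet and received nobiletin, a citrus flavone, as an oral dose of 200 mg/kg on alternate days over 10 weeks. The HFD arm was fed the same kind of diet with vehicle, and the RC arm was fed chow with vehicle. Each arm was sampled at zeitgeber time (ZT) 14, in the dark phase, and at ZT2, in the light phase, in a 12 h light and 12 h dark cycle with food always available, so each of the 6 groups was 1 array. Whether the mice were male or female is not stated in the labels, and whole-liver pools hide the spread between mice.

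Oxidative phosphorylation is the last stage of respiration in the inner mitochondrial membrane. Complex I takes electrons from NADH and complex II takes them from succinate, complex III passes them on to cytochrome c, and complex IV hands them to oxygen. The proton gradient made along the way drives complex V, the ATP synthase. In liver, a tissue rich in mitochondria, this chain also consumes the electrons that fatty acid oxidation releases. A few subunits exist as tissue isoforms, and Cox6a2, Cox7a1 and Cox8b are those typical of heart and skeletal muscle.

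The 79 genes comprised 33 subunits of complex I (5 of the catalytic core and 28 accessory ones), 3 of complex II, 6 of complex III, 13 of complex IV and 16 of complex V. The name pattern also took in 7 assembly factors of complex I, which build the complex and are not part of it, and 1 gene named as a pseudogene, Ndufs5-ps, whose probe may share signal with Ndufs5. Ndufa4 is named for complex I and was counted with complex IV, where the protein is now placed. The 13 of complex IV also include Cox7a2l, which is classed as a supercomplex factor. Of the 79 genes, 77 were detected on all 6 arrays. Ndufb11, an accessory subunit of complex I, was detected on 5, and Cox6a2 on 2, those of HFD and RC at ZT14. Levels below are log2 intensities after background correction and quantile normalization, on a scale on which 4 is no signal and 14.6 the highest value, and probes of different genes cannot be ranked against each other. The median level over the 79 genes was 11.05 in NOB, 11.05 in HFD and 11.05 in RC at ZT14, and 10.95 in NOB, 10.95 in HFD and 10.97 in RC at ZT2.

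Between 28.1% and 32.0% of the probes were detected on an array, with the most in HFD at ZT2. Liver identity was visible in Apoa1, the main protein of high-density lipoprotein, at levels of 14.19 to 14.36, and 6 of 8 listed hepatocyte genes were measured. The albumin probe was dim, at 4.77 to 5.39, so it did not serve as a marker. The array of RC at ZT14 stood apart in skeletal muscle transcripts. Of 14 such markers 10 were measured, and their summed linear level was 317 in NOB, 1142 in HFD and 5493 in RC at ZT14, and 310 in NOB, 339 in HFD and 204 in RC at ZT2. None of the 5 heart markers was detected. In pooled tissue, fewer cells of a type and less RNA per cell cannot be told apart.

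The first comparison asked whether the high-fat diet changed the respiratory chain genes. With arm and time as additive terms over the 6 arrays, none of the 79 passed an adjusted p of 0.05 in limma's test of HFD minus RC, while 6.82% of all genes did. Without adjustment 2 of the 79 had p under 0.05 in this test, against 2073 of all 8561 genes. With moderation by trend and robust fitting the count past the adjusted threshold was again 0, with a smallest adjusted p of 0.0897. The fitted differences had a median of 0.01 on the log2 scale, against 0.00 over all genes, and a median size of 0.11, against 0.22 over all genes. For 77 of the 79 genes the 95% interval of the difference lay within 2-fold either way, against 7372 of all 8561 genes. For 55 of the 79 it lay within 1.5-fold, against 3795 of all genes. These p-values and intervals rest on 2 residual degrees of freedom, with a spread measured between arrays and borrowed across genes, and any diet difference that depends on the time counts there as spread.

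Ndufa8, an accessory subunit of complex I exposed to the intermembrane space, was higher in HFD and was 1 of the 2 genes with an unadjusted p under 0.05. Its level was 11.33 in NOB, 11.66 in HFD and 11.10 in RC at ZT14, and 11.29 in NOB, 11.26 in HFD and 10.98 in RC at ZT2. Both high-fat arms lay above RC at both times. HFD minus RC was 0.42 ± 0.16 (SE, 6 arrays, limma adjusted p = 0.162), and a second probe of Ndufa8 gave 0.81 at ZT14 and 0.21 at ZT2. Atp5md, a small accessory subunit of ATP synthase, was the other, with 5.45 in NOB, 5.26 in HFD and 5.66 in RC at ZT14, and 5.15 in NOB, 5.13 in HFD and 5.45 in RC at ZT2. By these levels RC was the highest arm at each time, and HFD minus RC was -0.36 ± 0.14 (SE, limma adjusted p = 0.182). The Atp5md probe was dim. The dimmest detected probes stood at 5.08 in NOB at ZT14, and at 4.85 in HFD and 5.03 in RC at ZT2. Before correction, RC was not the highest arm at either time. Raw intensities of Atp5md were 84.9 in NOB, 80.2 in HFD and 83.3 in RC at ZT14. At ZT2 they were 78 in NOB, 81.6 in HFD and 79.4 in RC. The part of background correction and normalization in this difference was not tested.

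**Figure D1:**
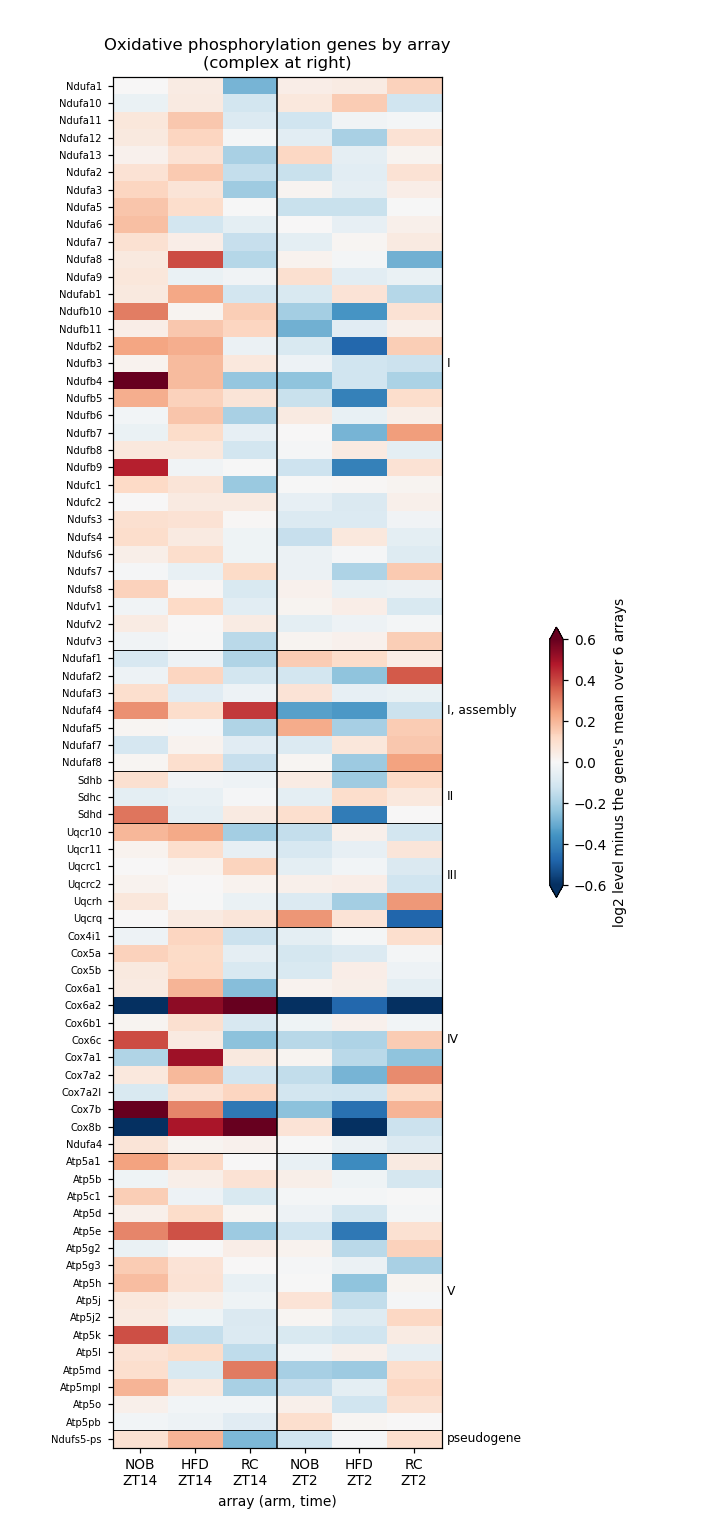
Each row is 1 of the 79 genes, ordered by complex, and each column is 1 array, with NOB, HFD and RC at ZT14 left of the line and at ZT2 right of it. The colour is the log2 level minus the mean of that gene over the 6 arrays, and values beyond 0.6 either way take the end colour, as those of Cox6a2 and Cox8b do.

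Taken one time at a time, the diet differences of many of these genes pointed in opposite directions at the 2 times. At ZT14, 56 of the 79 genes were higher in HFD than in RC, against 50% of all genes. The median log2 difference was 0.13 against 0.00 over all genes. At ZT2, 25 of the 79 were higher in HFD, against 51% of all genes, with a median of -0.09 against 0.01 over all genes. In all, 38 genes (48.1%) were higher in HFD at ZT14 and lower in HFD at ZT2, a pattern that 15.8% of all genes showed, and 7 (8.86%) had the opposite pattern, against 16.9% of all genes. Each of these values sets 1 array against 1, so none has a replicate check or a test, and the 79 genes share the same 4 arrays. Of the 23 genes with several detected probes, the sign of HFD minus RC was the same in all of a gene's probes for 14 at ZT14 and for 16 at ZT2.

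By median, the sizes were small beside those of the whole array, at 0.15 against 0.27 at ZT14 and 0.13 against 0.24 at ZT2. Those of the 23 genes with a mean level under 9 were not at ZT2, at 0.43 against 0.24 over all genes under 9. At ZT14, 18 genes exceeded RC by 1.2-fold or more in HFD, against 26.7% of all genes, and 4 lay below RC by as much, against 24.4%. At ZT2, 3 exceeded RC by 1.2-fold or more, against 23.7% of all genes. Another 22 lay below it by as much, a larger share than the 22% of all genes. A difference of at least 1.5-fold was found for 3 genes at ZT14, against 19.1% of all genes, and for 4 at ZT2, against 13.5%. Relative to their own means over the 6 arrays, the 79 genes lay at a median of 0.08 in HFD and -0.05 in RC at ZT14, and at -0.06 in HFD and 0.02 in RC at ZT2, and the array of RC at ZT14 carried the muscle transcripts. Without Cox6a2, Cox7a1 and Cox8b the medians were 0.13 at ZT14 and -0.09 at ZT2, and the part of the muscle transcripts in these differences was not tested. The 23 genes with a mean level under 9 had a median of -0.41 at ZT2, and the 56 brighter ones had -0.05. HFD at ZT2 was the array with the highest median raw intensity (62.4, against 57.5 to 61.2 on the other arrays), and its part in the ZT2 difference was not tested. The 6 measured hepatocyte markers were also lower in HFD than in RC at ZT2, with a median of -0.32, and had a median of -0.02 at ZT14. The ZT2 median takes in the dim albumin probe, at -0.52. The other markers were Apoa1 at -0.13, Apoa2 at -0.06, Ttr at -0.12, Serpina1a at -0.67 and Cps1 at -1.16. Among them Cps1, the first enzyme of the urea cycle, fell by 1.41 ± 0.19 in HFD minus RC over both times (SE, limma adjusted p = 0.0114). The part of these markers in the ZT2 difference was not tested either. With median scaling in place of quantile normalization, 6 of the 79 genes were higher in HFD at ZT2, with a median of -0.28, where all genes had -0.06 and genes with a level of 9 or more had -0.10.

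By complex, the subunits of complex I had a median HFD minus RC of 0.16 at ZT14, with 26 of 33 higher, and of -0.07 at ZT2, with 9 of 33 higher. The 5 measured core subunits, Ndufs3, Ndufs7, Ndufs8, Ndufv1 and Ndufv2, which belong to the conserved catalytic part of the complex, had medians of 0.09 and -0.02, and the 28 accessory ones had 0.17 and -0.07. Complex IV had 0.21 at ZT14, with 9 of 13 higher, and -0.07 at ZT2, with 6 of 13 higher. Complex V had 0.07, with 11 of 16 higher, and -0.17, with 4 of 16 higher. Complex III stood at 0.01 at ZT14, with 3 of 6 higher, and at 0.11 at ZT2, with 4 of 6 higher. For complex II, which also belongs to the citric acid cycle, the 3 measured subunits had a median of -0.03 at ZT14 and -0.33 at ZT2. The assembly factors of complex I had 0.15 and -0.23. Under median scaling complex III stood at -0.04 and -0.14, with its sign turned at both times, complex V at 0.00 and -0.39, and complexes I and IV kept the signs above. No test of a difference between complexes was made.

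**Figure D2:**
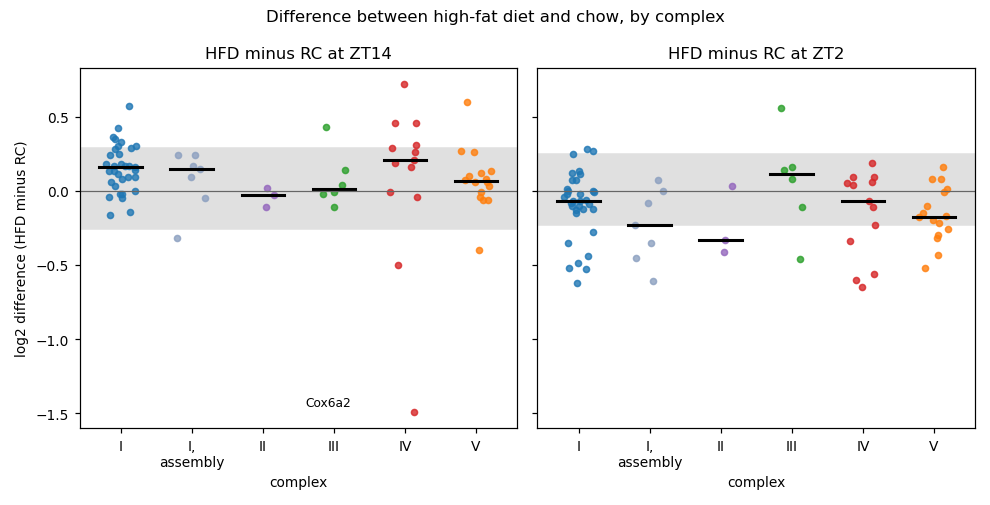
Each point is the log2 difference HFD minus RC of 1 gene at ZT14 (left) and at ZT2 (right), sorted by complex, with black bars for the medians of each complex. The grey band spans the lower to the upper quartile of all 8561 genes, and the bars lie above 0 in complexes I, IV and V at ZT14 and below 0 in the same complexes at ZT2 (with median scaling, complex V is at 0.00 at ZT14).

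At least 1.5-fold different between HFD and RC at a single time were Cox6a2, Cox7b and Atp5e at ZT14 and Cox7b, Ndufb2, Ndufaf2 and Cox8b at ZT2. The muscle isoforms Cox6a2, at -1.49, and Cox8b, at -0.60, are described with their tissue markers. Cox7b, a small subunit needed to assemble complex IV, had levels of 6.39 in NOB, 6.06 in HFD and 5.34 in RC at ZT14. At ZT2 its levels were 5.52 in NOB, 5.32 in HFD and 5.97 in RC. Both high-fat arms thus exceeded RC at ZT14 and lay below it at ZT2, with HFD minus RC at 0.72 and -0.65. Over both times the fitted difference was 0.03 ± 0.35 (SE, limma adjusted p = 0.964). The Cox7b probe was dim, and its 5.32 in HFD at ZT2 compares with 4.85 for the dimmest detected probes of that array.

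Atp5e, the epsilon subunit in the rotating stalk of ATP synthase, showed the same signs. Its level was 7.33 in NOB, 7.42 in HFD and 6.82 in RC at ZT14, and 6.92 in NOB, 6.61 in HFD and 7.13 in RC at ZT2, which gave HFD minus RC of 0.60 and -0.52. Cox7a2, the isoform of subunit 7a that liver uses, had 7.67 in NOB, 7.80 in HFD and 7.49 in RC at ZT14, and 7.46 in NOB, 7.33 in HFD and 7.89 in RC at ZT2. For Cox7a2 HFD minus RC was 0.31 at ZT14 and -0.56 at ZT2. In complex I, Ndufb2, an accessory subunit of the membrane arm, had 7.57 in NOB, 7.55 in HFD and 7.30 in RC at ZT14, and 7.24 in NOB, 6.86 in HFD and 7.48 in RC at ZT2. HFD at ZT2 was its lowest array, 0.62 below RC. The assembly factor Ndufaf2 was 0.61 lower in HFD than in RC at ZT2, at 7.82 against 8.43. In the fit over both times, adjusted p for these 4 genes lay between 0.646 and 0.939.

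Brighter subunits differed less. Cox6a1, the isoform of subunit 6a found in liver, had 12.69 in NOB, 12.84 in HFD and 12.38 in RC at ZT14, and 12.66 in NOB, 12.67 in HFD and 12.58 in RC at ZT2. Its fitted HFD minus RC was 0.28 ± 0.16 (SE, limma adjusted p = 0.333), and a second Cox6a1 probe gave 0.49 at ZT14 and 0.14 at ZT2. Uqcr10, a small subunit of complex III, had a fitted HFD minus RC of 0.28 ± 0.16 (SE, limma adjusted p = 0.334). Ndufab1, the mitochondrial acyl carrier protein that also sits in complex I, had 0.30 ± 0.14 (SE, limma adjusted p = 0.251). Atp5b, the catalytic beta subunit of ATP synthase, lay between 13.84 and 14.03 on the 6 arrays.

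The nuclear genes of the chain are known as targets of the transcription factors NRF1, GABP (of the ETS family), ERR-alpha and YY1. Their promoters are described here, and whether the motifs bear on the differences between arrays was not tested. Promoters from 250 bases before to 50 bases after the start were available from RefSeq (GRCm38.p6) for 68 of the 79 genes. The NRF1 letters CGCATGCG, which read the same on both strands, were in 11 of them (16.2%), against 2.07% of 27025 genes. The ETS letters CCGGAAG were in 18 (26.5%) on either strand, against 9.93% of all genes, and the YY1 letters AAGATGGCG in 8 (11.8%), against 1.64%. The receptor letters AAGGTCA were in 7 (10.3%), against 5.38%. None of the 4 motifs contains another, and a match is a description of letters, not of a bound site.

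The 250 bases before the start of 5 genes with described values are given 5′ to 3′ on the gene's own strand, with NRF1 and ETS letters in capitals in either orientation. They are Ndufa8 (chr2:36049339-36049588, minus strand), Sdhd (chr9:50603850-50604099, minus strand), Cox7b (chrX:106015450-106015699, plus strand), Cox6a1 (chr5:115348959-115349208, minus strand) and Atp5e (chr2:174464102-174464351, minus strand). Ndufa8 holds the NRF1 letters close to the start, Sdhd and Atp5e hold the ETS letters, Cox6a1 holds both, and Cox7b holds none of the 4 motifs in this window. The receptor letters of Sdhd and Atp5e lie after the start, outside the stretch shown.
Ndufa8: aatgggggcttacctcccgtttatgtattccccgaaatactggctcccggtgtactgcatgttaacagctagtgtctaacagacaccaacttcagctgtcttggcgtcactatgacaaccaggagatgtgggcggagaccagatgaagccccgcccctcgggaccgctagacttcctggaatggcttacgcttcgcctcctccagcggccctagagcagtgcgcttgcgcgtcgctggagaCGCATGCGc
Sdhd: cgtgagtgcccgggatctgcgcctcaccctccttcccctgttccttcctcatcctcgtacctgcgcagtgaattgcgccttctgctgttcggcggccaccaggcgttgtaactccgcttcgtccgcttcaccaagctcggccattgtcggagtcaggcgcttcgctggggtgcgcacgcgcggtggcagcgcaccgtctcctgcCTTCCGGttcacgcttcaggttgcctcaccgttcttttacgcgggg
Cox7b: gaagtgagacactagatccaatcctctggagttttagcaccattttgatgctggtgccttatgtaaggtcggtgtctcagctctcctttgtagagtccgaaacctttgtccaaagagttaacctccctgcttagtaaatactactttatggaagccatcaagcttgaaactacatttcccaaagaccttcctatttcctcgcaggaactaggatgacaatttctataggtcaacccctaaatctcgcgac
Cox6a1: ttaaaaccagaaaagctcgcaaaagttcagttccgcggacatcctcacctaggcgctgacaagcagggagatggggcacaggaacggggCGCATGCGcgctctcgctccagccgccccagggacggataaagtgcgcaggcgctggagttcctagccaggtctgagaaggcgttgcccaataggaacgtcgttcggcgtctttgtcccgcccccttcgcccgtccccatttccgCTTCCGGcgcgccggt
Atp5e: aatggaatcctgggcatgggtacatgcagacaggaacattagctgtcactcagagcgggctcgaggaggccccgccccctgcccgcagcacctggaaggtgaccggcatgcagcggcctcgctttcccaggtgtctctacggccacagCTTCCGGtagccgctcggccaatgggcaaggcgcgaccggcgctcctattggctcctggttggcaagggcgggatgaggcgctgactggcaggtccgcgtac

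The second comparison asked whether nobiletin changed these genes on the high-fat diet. In limma's test of NOB minus HFD, 0 of the 79 genes passed an adjusted p of 0.05, against 0.164% of all genes. An unadjusted p under 0.05 was found for 1 of them, against 751 of all 8561 genes. With moderation by trend and robust fitting the count was also 0, with a smallest adjusted p of 0.404. The median fitted difference was 0.01, as over all genes, and the median size was 0.09, against 0.13 over all genes. For 76 of the 79 genes the 95% interval lay within 2-fold, against 8070 of all 8561 genes. For 64 of the 79 it lay within 1.5-fold, against 5229 of all genes.

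Sdhd, the membrane anchor of complex II that helps to hold its haem, was the gene with an unadjusted p under 0.05. Its level was 7.82 in NOB, 7.44 in HFD and 7.55 in RC at ZT14, and 7.60 in NOB, 7.08 in HFD and 7.50 in RC at ZT2. NOB was the highest arm and HFD the lowest at both times. NOB minus HFD was 0.45 ± 0.15 (SE, 6 arrays, limma adjusted p = 0.439). Sdhb, the iron-sulfur subunit, had 0.19 ± 0.15 and Sdhc, the other anchor, had -0.09 ± 0.14 (SE, limma adjusted p = 0.821 and 0.929). Ndufb9, an accessory subunit in the membrane arm of complex I, had 9.21 in NOB, 8.72 in HFD and 8.74 in RC at ZT14, and 8.62 in NOB, 8.34 in HFD and 8.83 in RC at ZT2. Its NOB minus HFD was 0.38 ± 0.19 (SE, limma adjusted p = 0.66). In complex V the largest was Atp5k, the e subunit of the membrane part, at 0.28 ± 0.19 (SE, limma adjusted p = 0.768).

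Within the times, 38 of 79 genes were higher in NOB than in HFD at ZT14 and 47 at ZT2, with medians of -0.01 and 0.03. They were 48.1% and 59.5% of the 79, against 52% and 49% of all genes, whose medians were 0.01 and -0.01. At least 1.2-fold higher in NOB were 8 genes at ZT14, against 16% of all genes, and 9 at ZT2, against 14.6%. At least 1.2-fold lower were 4 at ZT14, against 15.2%, and 1 at ZT2, against 17.4%, which was Cox6a2, below background in both arms at ZT2 and so without a fold. Measured differences of at least 1.5-fold were found for 3 genes at ZT14, against 6.19% of all genes, and for 1 at ZT2, against 6.66%. These were Cox6a2, Cox7a1 and Cox8b at ZT14 and Cox8b at ZT2. Cox6a2 was not above background in NOB, and its bound there, at least 1.48-fold lower, does not reach 1.5-fold. With median scaling 71 of the 79 genes were higher in NOB at ZT2, with a median of 0.14, where all genes had 0.02 and genes with a level of 9 or more had 0.10. At ZT14 median scaling put 46 of the 79 higher in NOB.

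Set against chow, NOB shared the RC arrays with the HFD comparison and is given side by side with it. In limma's test of NOB minus RC, 0 of the 79 genes passed, against 0.993% of all genes. Only 1, Cox6a2, had an unadjusted p under 0.05, against 1283 of all 8561 genes. With moderation by trend and robust fitting the count was 0, with a smallest adjusted p of 0.382. At ZT14, 63 of 79 genes were higher in NOB than in RC, with a median of 0.14. At ZT2 27 were higher, with a median of -0.07 (16 of 79 under median scaling). Of all genes 53% were higher in NOB than in RC at ZT14 and 50.9% at ZT2, with medians of 0.03 and 0.01. Cox6c, a small subunit of complex IV, had 11.05 in NOB, 10.71 in HFD and 10.41 in RC at ZT14, and 10.49 in NOB, 10.47 in HFD and 10.81 in RC at ZT2. As for Cox7b, the NOB level exceeded RC at ZT14, by 0.63, and fell short of it at ZT2, by a difference of -0.32. Uqcrq, a small subunit of complex III, differed most at ZT2, where it had 7.35 in NOB, 7.17 in HFD and 6.61 in RC. At ZT14 the Uqcrq levels lay together, with 7.09 in NOB, 7.14 in HFD and 7.16 in RC.

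The third comparison set ZT14 against ZT2. Over the 3 arms, 0 of the 79 genes passed an adjusted p of 0.05 in limma's test, against 0.0234% of all genes. An unadjusted p under 0.05 was found for 2 of them, Ndufaf4 and Cox6a2, against 932 of all 8561 genes. Cox6a2 passed the detection filter only through 2 arrays at ZT14, so its p supports nothing. With moderation by trend and robust fitting the count was 0, with a smallest adjusted p of 0.111. The median fitted difference was 0.06, against -0.01 over all genes. Of the 79 intervals 76 lay within 2-fold, against 8286 over all 8561 genes. Ndufaf4, an assembly factor of complex I, had 9.10 in NOB, 8.93 in HFD and 9.25 in RC at ZT14, and 8.50 in NOB, 8.48 in HFD and 8.70 in RC at ZT2. Its 3 arrays at ZT14 all lay above its 3 arrays at ZT2, and ZT14 minus ZT2 was 0.53 ± 0.12 (SE, 6 arrays, limma adjusted p = 0.19). A second, dimmer Ndufaf4 probe gave 0.65 in HFD and 0.53 in RC but -0.04 in NOB. The other 6 assembly factors of complex I had fitted differences between -0.20 and 0.00.

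Within the arms, most of the 79 genes were higher at ZT14 than at ZT2 on the high-fat diet, with or without nobiletin. In HFD 66 of 79 genes were higher at ZT14, with a median of 0.16, and in NOB 59 were, with a median of 0.11. In RC 29 were higher at ZT14, with a median of -0.07. Of all genes 51.2% were higher at ZT14 in NOB, 47.6% in HFD and 47.1% in RC, with medians of 0.01, -0.01 and -0.02. At least 1.2-fold higher at ZT14 were 16 genes in NOB, 21 in HFD and 5 in RC, where 18.3%, 14.8% and 17.5% of all genes were. At least 1.2-fold lower were 1 in NOB, 0 in HFD and 13 in RC, where 16.9%, 16.8% and 21.4% of all genes were. These are single arrays against single arrays, and whether the arms differ was not tested. Median scaling gave 75 of 79 in HFD and 17 of 79 in RC, given here without the share of all genes under that scaling.

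In HFD, all 13 measured genes of complex IV were higher at ZT14 than at ZT2, with a median of 0.22, and this also held under median scaling. In complex I 29 of 33 were higher, with a median of 0.15, and in complex V 13 of 16, with a median of 0.12. In RC, 5 of 13, 14 of 33 and 4 of 16 were higher, with medians of -0.07, -0.04 and -0.08. Of the 23 genes with several detected probes, all probes of a gene had the same sign between the times for 15 in NOB, 21 in HFD and 15 in RC.

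**Figure D3:**
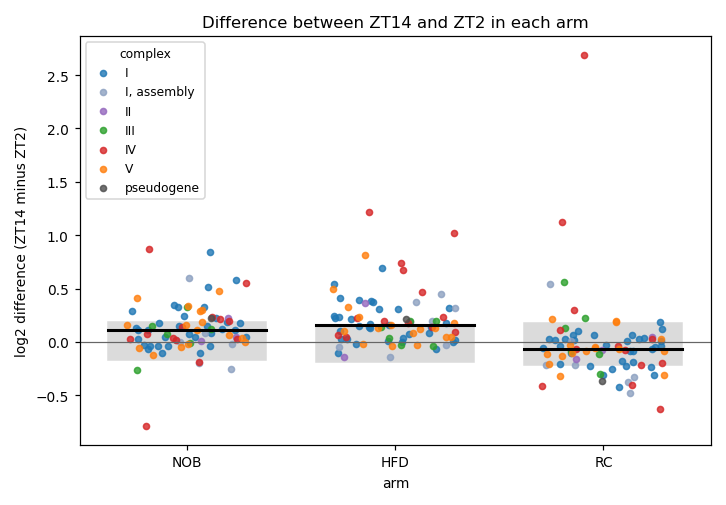
Each point is the log2 difference ZT14 minus ZT2 of 1 of the 79 genes in the NOB, HFD and RC arms, coloured by complex, with the black bar at the median (0.11, 0.16 and -0.07). The grey boxes span the lower to the upper quartile of all 8561 genes, and the highest point in RC is Cox6a2.

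The widest differences among the 79 genes belonged to the muscle isoforms of complex IV. Cox6a2 had 4.50 in NOB, 5.65 in HFD and 7.14 in RC at ZT14, and 4.29 in NOB, 4.64 in HFD and 4.45 in RC at ZT2. It was detected in HFD and RC at ZT14 and not above background on the other 4 arrays, so its folds there are lower bounds, set against the dimmest detected probes of the array concerned. At ZT14, Cox6a2 in NOB was at least 4.16-fold lower than in RC and at least 1.48-fold lower than in HFD. In RC it was at least 4.31-fold higher at ZT14 than at ZT2, and in HFD at least 1.75-fold higher. Cox6a2 passed the detection filter only through the 2 arrays on which it is high, so its p-values draw on values that chose it, and they are a description that supports nothing. Its limma adjusted p was 0.269 for NOB minus RC and 0.34 for ZT14 minus ZT2. Leaving out the RC array at ZT2, so that RC is 1 array, gave a fitted NOB minus RC of -2.44 and HFD minus RC of -1.69.

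Cox8b, the muscle isoform of subunit 8 of complex IV, had 7.00 in NOB, 8.20 in HFD and 8.70 in RC at ZT14, and 7.79 in NOB, 6.98 in HFD and 7.58 in RC at ZT2. NOB was the lowest arm at ZT14 and the highest at ZT2, and NOB minus HFD was -1.19 and 0.82. With all arrays, the fitted NOB minus RC of Cox8b was -0.74 ± 0.45 (SE, limma adjusted p = 0.5). Its NOB minus RC was -1.69 at ZT14 and 0.21 at ZT2. Leaving out the NOB array at ZT2, where the difference had the other sign, gave a fitted value of -1.72. That fit leaves NOB with 1 array, so it supports nothing. Cox7a1 had 7.48 in NOB, 8.17 in HFD and 7.72 in RC at ZT14, and 7.68 in NOB, 7.50 in HFD and 7.42 in RC at ZT2. HFD at ZT14 was its highest array.

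The order of the arms for Cox6a2 at ZT14 was the order of the skeletal muscle markers, whose median level was 5.08 in NOB, 7.09 in HFD and 9.05 in RC at ZT14. At ZT2 the marker median was 4.96 in NOB, 5.32 in HFD and 5.22 in RC. Of the 10 markers, 9 had that order at ZT14, among them Acta1, the actin of skeletal muscle, with 4.71 in NOB, 7.58 in HFD and 10.12 in RC. The other was Tpm2, a tropomyosin, with 7.47 in NOB, 7.71 in HFD and 6.30 in RC at ZT14, and 7.52 in NOB, 7.06 in HFD and 5.33 in RC at ZT2. Tpm2 was the marker of this list that passed the test, with HFD minus RC at 1.57 ± 0.24 and NOB minus RC at 1.68 ± 0.24 (SE, limma adjusted p = 0.0178 and 0.04). Cox8b followed the order of the 9 at ZT14, and Cox7a1 did not. At ZT2 Cox8b was highest in NOB, the arm in which the marker median was lowest. Brown fat cells also use Cox7a1, and the 4 brown adipocyte markers, of which Cox7a1 is 1, summed to 426 in NOB, 871 in HFD and 645 in RC at ZT14, and to 505 in NOB, 1146 in HFD and 584 in RC at ZT2. The sum hides that these markers differ in order. Elovl3 had 7.42 in NOB, 6.88 in HFD and 6.86 in RC at ZT14, with NOB highest where Ucp1 and Cox8b had it lowest. At ZT2 Elovl3 had 7.31 in NOB, 6.81 in HFD and 8.39 in RC, with RC highest. Cidea, a lipid droplet protein, had 8.66 in HFD at ZT14 and 9.75 in HFD at ZT2, its highest arrays. Ucp1, which defines brown fat, had 5.23 in NOB, 6.97 in HFD and 7.11 in RC at ZT14, and 6.74 in NOB, 5.81 in HFD and 6.16 in RC at ZT2, the order of the arms that Cox8b had at both times. What part muscle or fat tissue in the pools had in these 3 genes was not tested.

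**Figure D4:**
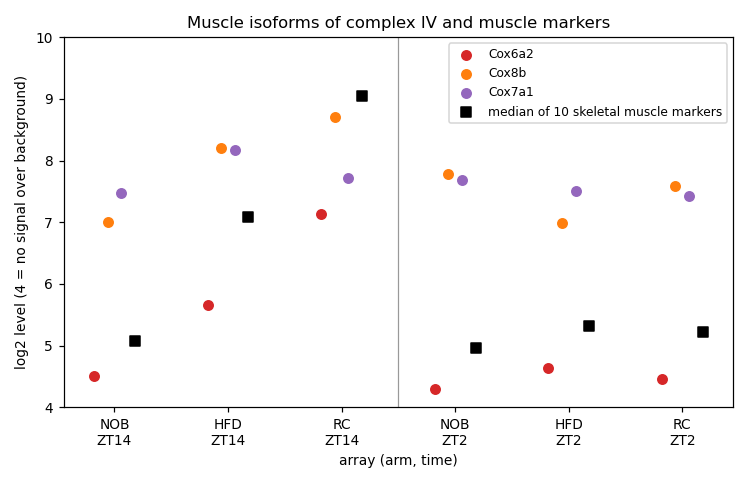
Log2 levels of Cox6a2, Cox8b and Cox7a1 are plotted for each array, with the median of 10 skeletal muscle markers as black squares, for NOB, HFD and RC at ZT14 (left) and at ZT2 (right). At ZT14 the squares, Cox6a2 and Cox8b all run highest in RC and lowest in NOB.

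Around the chain, most of the related genes also did not pass the test. Of 34 measured assembly factors of the complexes outside the name rule, 1 rose in HFD against RC, where 6.82% of all genes passed in either direction. This was Cox19, a copper-handling factor of complex IV assembly, with 9.79 in NOB, 10.22 in HFD and 9.50 in RC at ZT14, and 9.87 in NOB, 10.06 in HFD and 9.34 in RC at ZT2. All arrays of both high-fat arms exceeded those of RC, and HFD minus RC was 0.72 ± 0.15 (SE, limma adjusted p = 0.0396). Of 8 measured electron carriers and entry points, 1 rose, the mitochondrial glycerol-3-phosphate dehydrogenase Gpd2, which feeds electrons from cytosolic glycerol phosphate to coenzyme Q. Gpd2 had 9.13 in NOB, 9.08 in HFD and 7.61 in RC at ZT14, and 8.23 in NOB, 9.03 in HFD and 7.23 in RC at ZT2. Again no RC array reached the lowest of the high-fat arms, and HFD minus RC was 1.64 ± 0.21 (SE, limma adjusted p = 0.0105).

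In the other 5 lists, 0 genes passed in HFD minus RC at an adjusted p of 0.05 in limma, against the same 6.82% of all genes. Of their genes 9 had an unadjusted p under 0.05, against 2073 of all 8561 genes. The median fitted difference was 0.23 over 14 genes of the citric acid cycle and pyruvate dehydrogenase, -0.15 over 16 regulators of mitochondrial gene expression, -0.04 over 10 genes of the outer membrane and import, 0.14 over 8 genes of coenzyme Q synthesis and -0.01 over 5 antioxidant genes. Dlat, a subunit of pyruvate dehydrogenase, had 0.83 ± 0.25, and Fh1, fumarate hydratase, had -0.58 ± 0.17 (SE, limma adjusted p = 0.104 and 0.095). The coactivator Ppargc1b, which acts with ERR-alpha and NRF1, had -0.53 ± 0.15 in HFD minus RC (SE, limma adjusted p = 0.0892) and 0.48 ± 0.15 in NOB minus HFD (SE, limma adjusted p = 0.409). In limma's tests of NOB minus HFD, of NOB minus RC and of the times, 0 genes of these 7 lists passed. Over all genes 0.164%, 0.993% and 0.0234% passed. In the lists, 4, 9 and 9 genes had an unadjusted p under 0.05, against 751, 1283 and 932 of all 8561 genes.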

How the data were processed

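Per the file headers, the deposited non-normalized table holds the mean bead intensity of 45281 probes and, for each, a detection p-value against that array's negative controls. The authors' processed matrix holds a second intensity per probe, which by its values was background-subtracted and quantile normalized. The submitters' processing notes name GenomeStudio, without its settings.

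Background correction and quantile normalization of the non-normalized intensities used neqc (offset 16) in limma 3.58.1 under R 4.3.3. Symbols came from the platform table, probes with several symbols were left out, and all 79 members matched the GRCm38.p6 gene table. limma fitted arm and time as additive terms over all 6 arrays, with 2 residual degrees of freedom and 4.82 from the prior, two-sided, with Benjamini-Hochberg adjustment over 8561 genes at 0.05. The pipeline was tested on simulated data. With 1 array per group, differences within a time or an arm are values with no test, counted past 1.2-fold and 1.5-fold. The number of arrays limits the precision, and signal over background stands in for depth.

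The genes, the lists and the 4 motifs were chosen with earlier results of these data known. Genes named were the 3 with the largest fitted difference in each complex, those at least 1.5-fold different between arms at a time, tissue isoforms, assembly factors, and in other lists those past the threshold or with the 2 largest differences, of which the text gives a part. Tried as alternatives were the authors' intensities, median scaling, an offset of 50, 2 other detection filters, the mean of a gene's probes, another moderation, no second term, each array left out in turn, and, chosen after seeing the data, the members without 3 muscle isoforms and counts by complex under median scaling.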

Additional observations from a re-analysis of the deposited data

Results flagged for a closer look

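Some genes differed between arms by at least 0.3 (log2) in one direction at ZT14 and in the other at ZT2. For HFD minus RC these were Cox7b, at 0.72 and -0.65, Atp5e, at 0.60 and -0.52, and Cox7a2, at 0.31 and -0.56. For NOB minus HFD it was Cox8b, at -1.19 and 0.82. For NOB minus RC they were Cox7b, at 1.05 and -0.45, and Cox6c, at 0.63 and -0.32. The share of the 79 genes was 3.8%, 1.27% and 2.53% for these comparisons, against 2.5%, 1.93% and 3.74% of all genes. Each value is 1 array against 1, and the difference between the times was not tested.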

How the results depend on the processing

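The 42 genes singled out by the naming rule had 2344 fitted or single-time values under the alternatives, of which 3 passed the threshold, all with 1 array left out, and 166 changed sign, none of these past the threshold. Of 246 medians and counts over the 79 genes, 231 stayed within the spread or within 1.5 times, and 15 moved. Leaving out each array in turn, where the lone array of an arm is assumed to vary like the others, the count of genes passing ran from 0 to 1 in both comparisons with RC, and from 0 to 0 for NOB minus HFD and for ZT14 minus ZT2. The medians then ran from -0.09 to 0.09 for HFD minus RC, -0.05 to 0.06 for NOB minus HFD, -0.06 to 0.14 for NOB minus RC and 0.03 to 0.12 for ZT14 minus ZT2. The gene that passed was Cox6a2 without RC at ZT2 and Cox8b without NOB at ZT2. Each of these fits leaves an arm with 1 array, so neither supports a difference. Median scaling gave NOB minus HFD a median of 0.10, and of 0.03 at ZT14 and 0.14 at ZT2, with 71 genes higher at ZT2. It gave HFD minus RC at ZT2 a median of -0.28 with 6 genes higher, NOB minus RC at ZT2 16 genes higher, and ZT14 minus ZT2 in RC 17 genes higher. With the mean of a gene's probes, the NOB minus HFD median was 0.04. Counts over all genes moved further, and for HFD minus RC they were 584 with all arrays, 34 without HFD at ZT14 and 91 with no detection filter. The cause of these shifts was not tested. No paired analysis was possible because each group is 1 array, with time already in the fit. Dim probes, such as those of Cox6a2 and Cox7b, limit what can be compared.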
